A study of Toxocara canis with 2 samples.

Results

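The chaperone and antioxidant transcripts of adult Toxocara canis, the large roundworm of dogs, were compared between an adult male and an adult female worm. Members were the unigenes (assembled transcripts) of the authors' annotated table whose Swiss-Prot name or KEGG definition contained a chaperone term (heat shock, chaperon, DnaJ or peptidyl-prolyl) or an antioxidant term (superoxide dismutase, catalase, glutathione, peroxiredoxin or thioredoxin). The terms matched 108 unigenes, of which 12 were dropped because their first protein hit was in Trypanosoma. The remaining 96 comprised 65 chaperone and 31 antioxidant unigenes, out of 21280 in that table and 70267 seen in either library. The deposited table lists only unigenes that the authors called different between the sexes, with a deposited FDR under 0.001 and a deposited log2 ratio of 1 or more in either direction. Every member therefore differs at least 2-fold by construction, and a chaperone or antioxidant gene with equal levels carries no name here. The member nearest that limit was a glutathione transferase match to C. elegans gst-36 (Unigene19363), at 29.9 FPKM in the male and 14.5 in the female. Just outside it lay unnamed contigs that share a cluster name with a member, such as CL1466.Contig4 at 501 and 910 FPKM, a 1.82-fold difference.

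Molecular chaperones bind unfolded or client proteins and help them reach or keep their fold. The heat shock protein HSP70 works with DnaJ co-chaperones, which bring it substrates and stimulate its ATPase. HSP90 acts late in the folding of kinases and receptors, small heat shock proteins hold unfolding proteins without ATP, and chaperonins enclose them in a barrel. Cyclophilins speed the turning of peptide bonds at proline. Antioxidant enzymes act in sequence, with superoxide dismutase turning superoxide into hydrogen peroxide, and catalase, glutathione peroxidases and peroxiredoxins removing the peroxide. Parasitic nematodes carry such enzymes inside cells and also secrete some of them.

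Both worms were adults of the strain labelled Rongchang, and each library was made from polyadenylated RNA of the whole body of 1 worm. In all, 18.4 M male fragments fell on 64618 unigenes and 19.8 M female fragments on 58435. Major sperm protein (CL2081.Contig1, 32102 FPKM in the male, 7.50 in the female) and vitellogenin (Unigene14425, 0.286 and 14049 FPKM) stood on the side that each sex label gives. With 1 library per sex no test was possible, and every difference below has no replicate check. In whole-body RNA a smaller share of cells of a type and less RNA per cell cannot be told apart, and an adult female also carries eggs. FPKM scales fragments by unigene length and library depth. Folds are ratios of library shares with exact 95% intervals from the fragment counts (Clopper-Pearson), which cover counting error only. A count of 0 was set to 3 fragments and its fold is given as a bound from that floor ("at least"), which is not an interval limit and lies above the exact lower limit where the latter was computed. Where a pair of values is given, the male value comes first. Scaling the libraries by their median ratio in place of the total would lower every female-over-male fold 1.28-fold and move the median of all unigenes by 0.13 on the log2 scale, with no member changing direction.

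The antioxidant unigenes were mostly higher in the female library, while the chaperones were split by family. Among the 31 antioxidant unigenes 24 were higher in the female library (77.4%), against 53.1% of the 6689 unigenes of the authors' table with a Swiss-Prot or KEGG name and 54.4% of all unigenes. Of the 65 chaperones 24 were higher in the female library (36.9%) and 41 in the male, against 46.9% of named unigenes and 45.6% of all unigenes higher in the male. A single family, 17 contigs matched to the co-chaperone CDC37, held much of the male side, and without it 24 chaperones were higher in each library. To pick out large differences, a size rule asked for 5 FPKM or more on the higher side and a ratio of 4-fold or more after adding 1 FPKM to each level. In the male direction it took 7 chaperones (10.8%) and 2 antioxidant unigenes (6.45%), against 14% of named unigenes and 4.5% of all unigenes. In the female direction it took 3 chaperones (4.62%) and 6 antioxidant unigenes (19.4%), against 8.9% of named and 2.38% of all unigenes. Of those 6, 3 were related superoxide dismutase matches of low score, without which 3 remained.

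On the log2 scale with 1 FPKM added, the median was 1.24 for the antioxidant unigenes and 0.50 for all named unigenes. It was -0.23 for the chaperones and 0.088 without the CDC37 contigs. The median over all 70267 unigenes was 0.08. Of the 96 members, 54 reached 5 FPKM in the higher library and 42 did not, and 28 had 0 fragments in the lower library. In the male library 4 of the 65 chaperones and 6 of the 31 antioxidant unigenes had 0 fragments, against 3.29% of named unigenes. Of those 6, 5 were the dismutase matches of low score. In the female library 18 of the 65 chaperones had 0 fragments, against 18.4% of named unigenes. CDC37 contigs made up 15 of the 18, and without that family 3 of 48 chaperones had 0 female fragments.

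**Figure D1:**
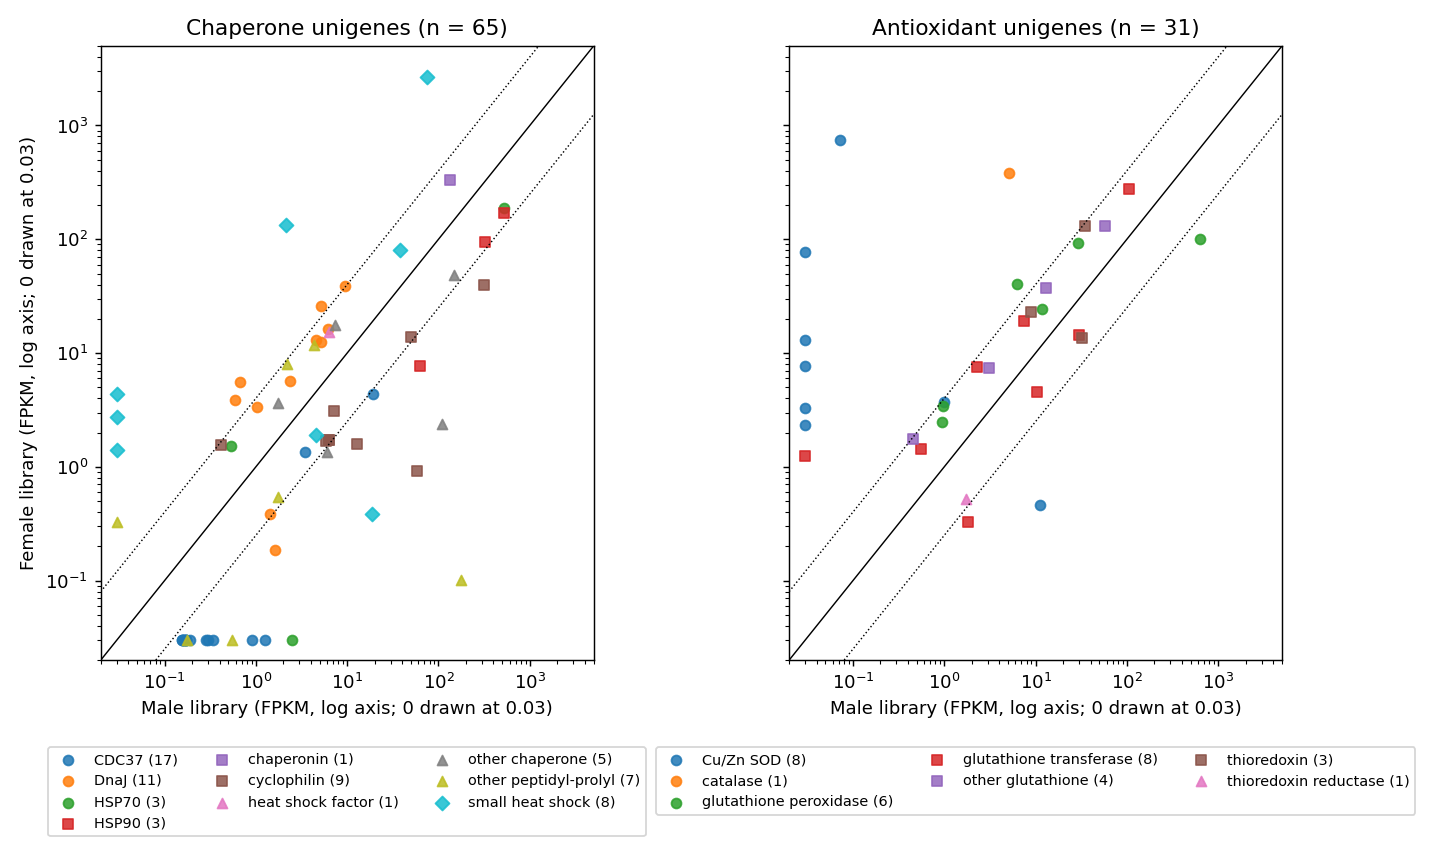
Level of each chaperone unigene (left) and antioxidant unigene (right) in the male library (x axis) and the female library (y axis), in FPKM on log axes, with 1 point per unigene and a count of 0 drawn at 0.03. The solid line marks equal levels and the dotted lines a 4-fold difference. Most antioxidant points lie above the solid line, and a row of chaperone points at the lower edge is made up mainly of CDC37 contigs with 0 female fragments.

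Among the chaperones, the small heat shock proteins had the largest female levels. The female library was the higher for 6 of 8, and the family's summed level was 138 FPKM in the male and 2882 in the female. A match to OV25-1, a small heat shock protein first described in the filarial worm Onchocerca volvulus, made up most of this. That unigene (Unigene2149) stood at 75.6 FPKM in the male and 2656 in the female (35.1-fold, 32.9 to 37.5), and ranked 27 by FPKM among all female unigenes and 1340 in the male. A further OV25-1 match (Unigene9946) was at 2.11 and 134 FPKM, a female excess of 63.5-fold (42.9 to 98.4). OV25-2 matches went both ways. CL1702.Contig4 was at 18.6 FPKM in the male and 0.385 in the female, a male excess of 48.3-fold (20.4 to 150). Its whole cluster, with 263 male and 68 female fragments, had a male excess of 4.17-fold (3.18 to 5.52). The sister contigs were low and went both ways. CL1702.Contig2 was at 1.04 and 3.47 FPKM, from 5 and 18 fragments. CL1702.Contig3 was at 1.54 and 2.35 FPKM and CL1702.Contig1 at 0.692 and 0.286 FPKM, both with intervals that included equal levels. The OV25-2 match Unigene42658 had 0 male and 37 female fragments, at 2.72 FPKM in the female library and at least 11.4-fold higher there. The match to C. elegans Hsp-16.48 (Unigene8726), with a low Swiss-Prot score of 66.2, was abundant in both, at 37.5 and 80.8 FPKM (2.15-fold, 2.0 to 2.32). The other members were low. CL3362.Contig1 and CL3362.Contig2 had 0 male fragments and 1.40 and 4.33 FPKM in the female library, with low Swiss-Prot scores of 54.3 and 58.2. Unigene11426, named through its KEGG definition alone, was at 4.58 and 1.89 FPKM.

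DnaJ co-chaperones leaned to the female library at low to moderate levels, with 9 of 11 members higher there and summed levels of 38.3 and 126 FPKM. Both matches to DnaJ subfamily C member 13, known as RME-8 in C. elegans and active in endosomal sorting, were higher in the female library. Unigene4103 was at 9.56 and 39.1 FPKM (4.09-fold, 3.82 to 4.37), and Unigene23581 at 5.12 and 26.2 FPKM (5.11-fold, 3.95 to 6.71). The latter was the DnaJ member that passed the size rule. A match to DnaJ subfamily B member 14 (Unigene6366) was at 0.665 and 5.60 FPKM (8.43-fold, 4.63 to 16.8). CL706.Contig1, whose KEGG definition is DnaJ subfamily C member 6, an auxilin that helps to uncoat clathrin vesicles, was at 0.597 and 3.86 FPKM (6.46-fold, 4.33 to 9.98). Its Swiss-Prot name is tensin-like C1 domain-containing phosphatase, so whether CL706.Contig1 is a DnaJ protein is uncertain. Cysteine string protein (Unigene23089), a DnaJ protein of synaptic vesicles, was at 4.53 and 13.1 FPKM (2.88-fold, 2.30 to 3.64). The remaining female-side members, CL1461.Contig1, CL1461.Contig2, Unigene531 and Unigene14428, differed by 2.38-fold to 3.30-fold. Unigene531 is named for DnaJ by its KEGG definition, while its Swiss-Prot name is odorant response abnormal protein 4, so it is uncertain too. On the male side stood a dnj-10 match (CL3184.Contig3), by its KEGG definition the mitochondrial type A member 3, at 1.44 and 0.383 FPKM. Its Swiss-Prot score was 82 and its first Nr hit is another DnaJ protein, DNJ-18, so its identity is less certain. DnaJ subfamily C member 9 (CL3639.Contig2) was at 1.60 and 0.186 FPKM, a male excess of 8.62-fold (3.40 to 27.98).

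The large ATP-driven chaperones were abundant in both worms, and here the named contigs gave another picture than their clusters. All 3 HSP90 members were higher in the male library. CL1622.Contig3 was at 515 and 170 FPKM (3.04-fold, 2.94 to 3.14), Unigene14573 at 327 and 95.5 FPKM (3.42-fold, 3.23 to 3.63) and Unigene28844 at 63.0 and 7.64 FPKM (8.25-fold, 6.50 to 10.6). The HSP70 member CL1466.Contig3, a match to C. elegans heat shock 70 kDa protein A, was at 517 and 187 FPKM, a male excess of 2.77-fold (2.68 to 2.86). Of the low HSP70 members, the fragment Unigene26351 had 14 male and 0 female fragments (at least 5.03-fold), and CL2095.Contig5, a match to the microsome-associated HSP70 member 13, was at 0.529 and 1.54 FPKM. Mitochondrial HSP60 (CL6021.Contig1), the chaperonin of that organelle, was at 133 and 333 FPKM, a female excess of 2.51-fold (2.44 to 2.58).

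For HSP70 and HSP90, contigs that share a cluster name with the members but lie outside the authors' table held most of the fragments. Over all 4 contigs of the HSP70 cluster CL1466 there were 79998 male and 87159 female fragments, a female-over-male ratio of 1.01 (1.0 to 1.02). The named contig carried 15.4% of the male and 5.52% of the female fragments. Within the cluster CL1466.Contig1 had a 1.74-fold male excess, and CL1466.Contig2 had a 1.44-fold female excess. The HSP90 cluster CL1622 totalled 45202 and 43435 fragments, a male excess of 1.12-fold (1.11 to 1.14), with CL1622.Contig1 at 618 and 719 FPKM. For HSP60 the other contig, CL6021.Contig2, had a 1.46-fold male excess (1.41 to 1.52), and the cluster had a 1.61-fold female excess (1.58 to 1.65). Contigs with 1 cluster name usually matched 1 protein entry, as in 528 of 742 clusters with several matched contigs in the authors' table. The rest of the 742 matched more than 1 entry. Contigs outside that table carry no name, so the check does not cover them. Whether such contigs are alleles, isoforms or gene copies is not given in the files, nor is how reads shared by similar contigs were assigned, so the values of single contigs are uncertain. With median-ratio scaling the CL1466 total and CL1622.Contig1 also turn to the male side.

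**Figure D2:**
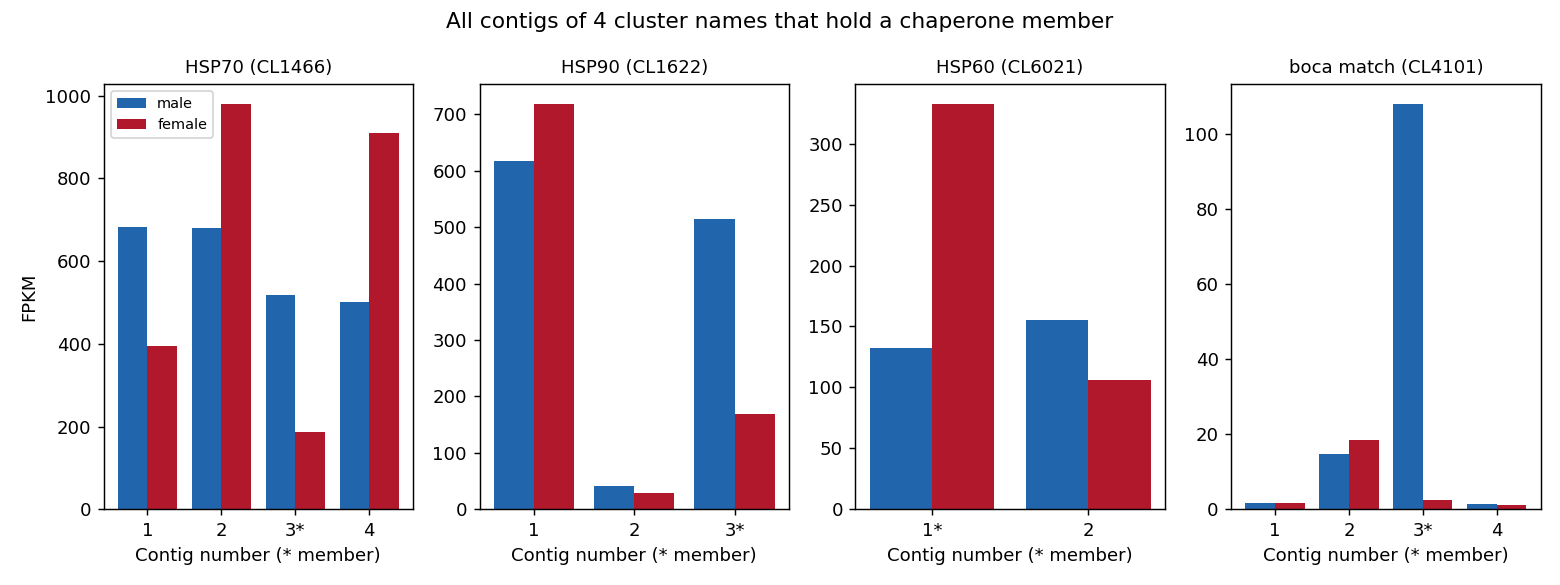
FPKM of every contig that shares a cluster name with a chaperone member, for HSP70, HSP90, HSP60 and the match to the LDL receptor chaperone boca, in the male (blue) and female (red) library. Members are starred and the other contigs lie outside the authors' table. Contigs 2 and 4 of the HSP70 cluster are higher in the female library, and the starred contig 3 is higher in the male.

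The match to heat shock factor 1 (Unigene4187), the transcription factor that switches on heat shock genes, was at 6.25 FPKM in the male and 15.4 in the female (2.47-fold, 2.12 to 2.87). A unigene named activating transcription factor of chaperone (Unigene6523) is by its KEGG definition an ATF4-type regulator and no chaperone. With a low Swiss-Prot score of 59.7 and a first Nr hit named ZIP-2, its identity is uncertain. By its name it stays in the chaperone counts, median and sums. It was at 149 and 48.4 FPKM, a male excess of 3.08-fold (2.93 to 3.23).

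Cyclophilins were higher in the male library for 8 of 9 members, with summed levels of 465 and 65.8 FPKM. The most abundant, a match to C. elegans cyclophilin 3 (Unigene7487), was at 318 FPKM in the male and 39.5 in the female (8.04-fold, 7.44 to 8.71). A further cyclophilin 3 match (Unigene5190) was at 50.4 and 13.9 FPKM (3.61-fold, 3.19 to 4.11). The widest difference was in a peptidyl-prolyl isomerase A match whose closest Nr hit is an opossum protein (Unigene19564), at 58.0 and 0.92 FPKM, a male excess of 63.0-fold (36.6 to 119). The 5 cyclophilin 7 matches, from the clusters CL2552 and CL2734, were all higher in the male library, by 2.29-fold to 8.15-fold. Of these, 3 share the first cluster name and 2 the second, so they are not independent observations. The exception was isomerase 4 (CL4904.Contig1), at 0.414 and 1.57 FPKM.

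A further 7 members were named for cyclophilin G, a nuclear isomerase with a long arginine- and serine-rich tail, and 4 of them only through the KEGG definition. The Swiss-Prot names of those 4 are other proteins, so whether they are isomerases is uncertain. Among them was the outermost chaperone member in the male direction (Unigene30218, whose first Nr hit is a bat protein), with the Swiss-Prot name serine/arginine repetitive matrix protein 5, at 174 and 0.101 FPKM. Its ratio of 1730 (741 to 5328) rests on 8026 male and 5 female fragments. The other 6 stayed under 5 FPKM or under a 4-fold difference, 3 higher in each library. Members named for cyclophilin G by Swiss-Prot are uncertain as well. CL1704.Contig7, CL2546.Contig4 and Unigene18955 had low scores of 73.6, 66.2 and 73.6, and CL2546.Contig4 has the KEGG definition of a splicing factor.

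CDC37, which loads protein kinases onto HSP90, was matched by 17 contigs of 1 cluster, CL210, all higher in the male library. Of these, 15 had 0 female fragments, but with only 14 to 106 male fragments each on contigs of 2230 to 5319 bases they reached at most 1.26 FPKM. Summed, the 15 held 385 male fragments, at least 138-fold more than the female library by the 3-fragment floor (exact lower limit 111.9). How reads shared by similar contigs were assigned is not given, so sums over them may count the same reads repeatedly. The 15 had Swiss-Prot scores of 100 to 171, so their identity is less certain. The other 2 had the highest Swiss-Prot scores of the family, 414 and 358. CL210.Contig67 was at 19.0 FPKM in the male and 4.37 in the female (4.35-fold, 3.64 to 5.22), and CL210.Contig68 at 3.44 and 1.34 FPKM (2.56-fold, 1.77 to 3.74). The whole cluster of 65 contigs held 1393 male and 197 female fragments, a 7.62-fold difference (6.56 to 8.89). None of the 17 passed the size rule, as 16 were under 5 FPKM and the largest differed by -1.90 on the log2 scale with 1 FPKM added.

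Chaperones with dedicated clients also went both ways. Boca and its vertebrate counterpart MESD are chaperones of the endoplasmic reticulum that fold receptors of the LDL receptor family. The boca match CL4101.Contig3 was at 108 FPKM in the male and 2.40 in the female (45.0-fold, 33.4 to 62.1), and the MESD match Unigene18032 at 5.97 and 1.36 FPKM (4.38-fold, 2.46 to 8.30). Unigene18032 had a low Swiss-Prot score of 58.5. Over its whole cluster the boca match had a 6.08-fold male excess (5.44 to 6.81), while the sister contig CL4101.Contig2 was at 14.8 and 18.5 FPKM. The histone chaperone asf-1 (Unigene572), which hands histones to replicating chromatin, was at 7.29 and 17.5 FPKM, a female excess of 2.40-fold (2.04 to 2.84). Tubulin-specific chaperone D (CL2958.Contig3), which folds beta-tubulin and here carries another protein's KEGG definition, was at 1.75 and 3.66 FPKM (2.09-fold, 1.69 to 2.61).

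**Figure D3:**
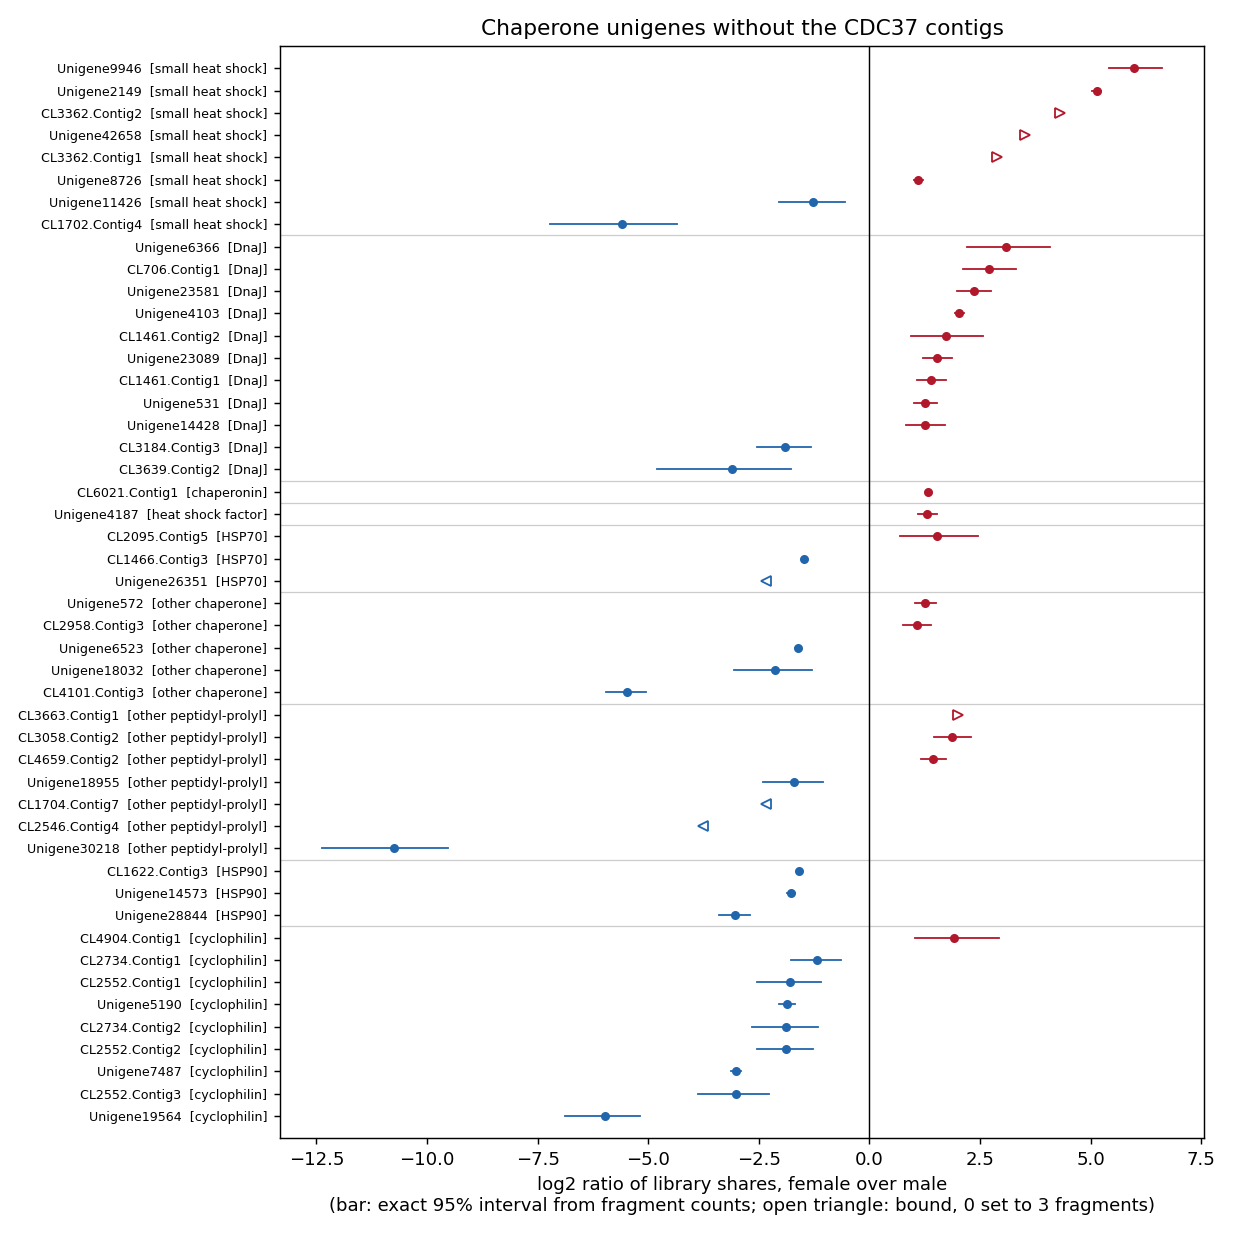
Female-over-male ratio of library shares on a log2 axis for the 48 chaperone unigenes outside the CDC37 cluster, grouped by family, with exact 95% intervals from fragment counts as bars. Open triangles are bounds for unigenes with 0 fragments in the lower library. Small heat shock proteins and DnaJ members lie mostly to the right (higher in the female library), and HSP90 and cyclophilin members mostly to the left.

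Among the antioxidants, superoxide dismutase and catalase were far more abundant in the female library. All 8 dismutase members matched the copper/zinc type, with 7 on the female side and summed levels of 12.2 and 848 FPKM. Most of this was an extracellular dismutase (Unigene41159, closest to the Haemonchus contortus enzyme), with 2 male and 22165 female fragments, at 0.0719 and 739 FPKM, which ranked 120 among female unigenes. Its ratio of 10285 (2847 to 84934) rests on those 2 male fragments. Unigene14473 and Unigene22142 both matched the extracellular dismutase of C. elegans but went in opposite directions. Unigene14473, whose first Nr hit is a ciliate protein, was at 0.985 and 3.72 FPKM (a 3.78-fold female excess, 2.08 to 7.34). Unigene22142 was at 11.2 and 0.46 FPKM, a male excess of 24.2-fold (12.9 to 51.3), so it was the most abundant dismutase member of the male.

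The other 5 dismutase members, 4 contigs of the cluster CL5341 and Unigene41257, all matched a Schistosoma enzyme with a low Swiss-Prot score of 70.1. Together they had 0 male and 2148 female fragments. CL5341.Contig3 reached 78.0 FPKM in the female library and was at least 492-fold higher there by the 3-fragment floor (exact lower limit 399.6), while CL5341.Contig2, Unigene41257, CL5341.Contig1 and CL5341.Contig4 stood at 13.0, 7.67, 3.26 and 2.31 FPKM. Because 4 of the 5 share a cluster name they are not independent observations.

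Catalase (Unigene13410), which breaks down hydrogen peroxide and here matched the Ascaris suum enzyme, was at 5.07 FPKM in the male and 379 in the female. The difference was 74.7-fold (63.9 to 87.8), and the unigene ranked 265 by FPKM among female and 14064 among male unigenes. It was the single catalase member.

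Glutathione peroxidases, which use glutathione to reduce peroxides, were all 6 matched to the same C. elegans protein, F26E4.12, and the most abundant copy went against the rest. Unigene13360 was at 639 FPKM in the male and 101 in the female, a male excess of 6.30-fold (6.06 to 6.56), and alone held 68.3% of all male antioxidant fragments. The other 5 were higher in the female library. Unigene5001 was at 6.24 and 40.7 FPKM (6.52-fold, 5.65 to 7.57) and passed the size rule. CL86.Contig1 was at 29.0 and 93.0 FPKM (3.21-fold, 2.87 to 3.60), and CL5391.Contig1 at 11.7 and 24.5 FPKM (2.10-fold, 1.81 to 2.45). Unigene128 and Unigene14229 stayed under 4 FPKM in both libraries. Summed over the family the levels were 687 and 265 FPKM, but 48.8 and 164 FPKM without Unigene13360.

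Glutathione transferases, which couple glutathione to foreign or oxidised compounds, differed by 2.06-fold to 5.52-fold where both libraries had fragments, and 5 of 8 were on the female side. The Ascaris suum enzyme GST-1 was matched by CL5131.Contig3 at 105 and 278 FPKM (2.66-fold, 2.52 to 2.80), and over its whole cluster the ratio was 1.88 (1.82 to 1.95). A low GST-1 match, CL4651.Contig3, went the other way at 1.82 and 0.33 FPKM (5.52-fold, 2.56 to 13.6), and its cluster held 75 and 48 fragments (1.68-fold, 1.16 to 2.47). Kappa-class matches were higher in the female library, with Unigene21172 at 2.28 and 7.53 FPKM and CL4346.Contig1 at 0.556 and 1.43 FPKM. So was CL4509.Contig2, a match to an Onchocerca transferase, at 7.50 and 19.1 FPKM. CL4346.Contig1 is named through its KEGG definition alone, so its identity is uncertain. It carried 5.67% of the male and 7.44% of the female fragments of its cluster, which had a 1.96-fold female excess (1.76 to 2.17). Omega-class matches were split. Unigene23074 was at 10.4 and 4.53 FPKM, and CL357.Contig1 had 0 male and 20 female fragments (at least 6.19-fold), while its cluster as a whole held 239 and 244 fragments.

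The thioredoxin system, which keeps protein thiols reduced, was thinly represented. Thioredoxin domain proteins 17 (Unigene4739) and 15 (Unigene445) were at 34.6 and 130 FPKM (3.76-fold, 3.36 to 4.203) and at 9.00 and 22.9 FPKM (2.54-fold, 2.24 to 2.88), higher in the female library. CL4888.Contig1, with the KEGG definition thioredoxin 1 but the Swiss-Prot name glutaredoxin 3, was at 32.2 and 13.5 FPKM (2.38-fold higher in the male, 2.04 to 2.79). Its sister contig CL4888.Contig2 was at 29.4 and 60.1 FPKM, so the cluster summed to 1.21-fold higher in the female library (1.12 to 1.32), which turns to the male side with median-ratio scaling. Thioredoxin reductase 1 (CL4129.Contig3), which recharges thioredoxin, was low, at 1.74 and 0.52 FPKM (3.35-fold higher in the male, 2.15 to 5.38). Its cluster held 118 male and 89 female fragments, a male excess of 1.43-fold (1.08 to 1.90), and both sister contigs were higher in the female library, CL4129.Contig1 by 1.26-fold (0.731 to 2.21) and CL4129.Contig2 by 2.89-fold (1.32 to 6.96). No peroxiredoxin was among the members, and the single thioredoxin peroxidase that matched had a Trypanosoma hit.

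The last 4 members named glutathione without being peroxide-removing enzymes or transferases, and all were higher in the female library. Alcohol dehydrogenase class-3 (Unigene18081) and S-formylglutathione hydrolase (Unigene1515), consecutive enzymes that clear formaldehyde bound to glutathione, were at 58.3 and 132 FPKM (2.26-fold, 2.13 to 2.40) and at 12.9 and 37.5 FPKM (2.90-fold, 2.56 to 3.28). A hydroxyacylglutathione hydrolase by KEGG definition (Unigene1573) was at 3.09 and 7.43 FPKM. A match to glutathione reductase 2 (Unigene41602), whose Nr hit is named thioredoxin reductase 2, was at 0.45 and 1.77 FPKM.

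**Figure D4:**
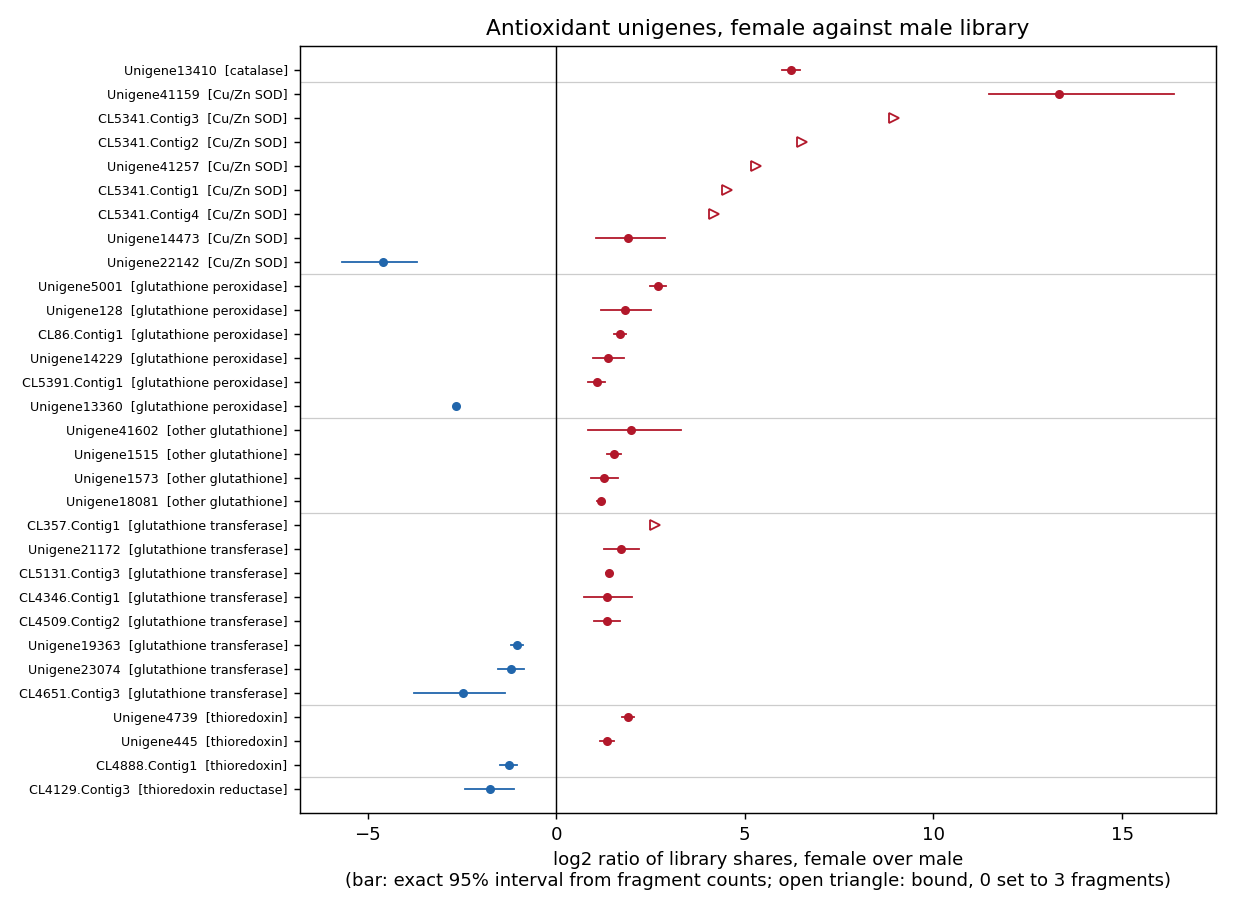
Female-over-male ratio of library shares on a log2 axis for the 31 antioxidant unigenes, grouped by family, with exact 95% intervals from fragment counts as bars and open triangles as bounds where the male count was 0. Extracellular dismutase, catalase and the dismutase contigs without male fragments lie farthest to the right, and 7 members lie to the left of 0.

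In abundance both groups rested on few unigenes. The antioxidant members took 0.138% (Clopper-Pearson 0.136 to 0.140%) of male and 0.296% (0.294 to 0.298%) of female fragments, 2.15-fold more in the female library. Without Unigene41159 that ratio was 1.33 (1.31 to 1.36), and without the male-high peroxidase Unigene13360 it was 6.42 (6.28 to 6.58). Median-ratio scaling would lower these ratios 1.28-fold, which brings the ratio without Unigene41159 close to equality. The chaperones took 0.373% (0.370 to 0.376%) of male and 0.413% (0.410 to 0.416%) of female fragments, a ratio of 1.11 that turns to the male side with median-ratio scaling. The small heat shock unigene Unigene2149 held 43.8% of the female chaperone fragments. Without it the direction turned, and the remaining members were 1.59-fold higher in the male library (1.57 to 1.60). These sums cover members only. They include Unigene30218 (8026 male and 5 female fragments), whose identity as an isomerase is uncertain. They also include Unigene6523 (6375 and 2233), by its KEGG definition a regulator and no chaperone. Both add more to the male side, and the directions of the chaperone sums without them were not computed. The HSP70 cluster CL1466 alone, mostly outside the authors' table, held 79998 male and 87159 female fragments. All chaperone members together held 68520 and 81774. The sums therefore do not give the direction of chaperone transcripts as a whole.

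**Figure D5:**
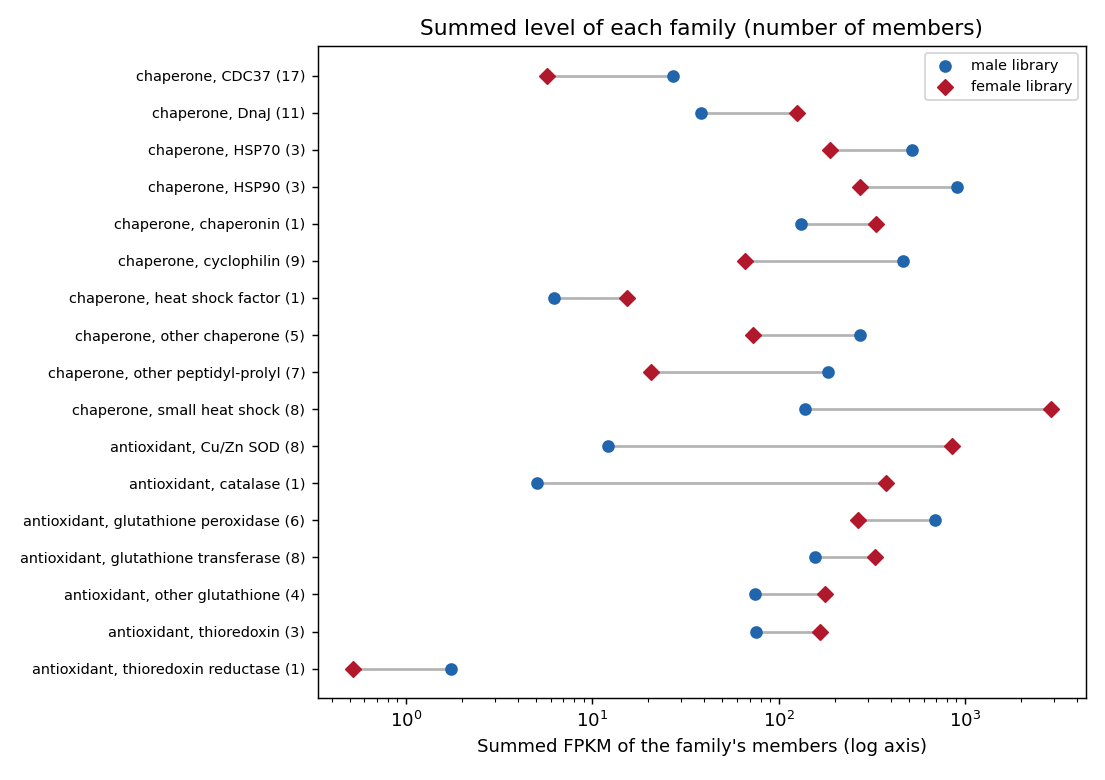
Summed FPKM of the members of each family in the male (blue circles) and female (red diamonds) library on a log axis, with the number of members in parentheses. The widest gaps in the female direction are catalase, copper/zinc dismutase and small heat shock proteins, and the widest in the male direction are the cyclophilins and the cyclophilin G group.

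Some protein entries covered unigenes of opposite direction. Among 13 Swiss-Prot entries with several members, 4 had members on both sides, namely OV25-2, the C. elegans extracellular dismutase, glutathione peroxidase F26E4.12 and GST-1. Of the 31 cluster names that hold a member, 22 also held contigs outside the authors' table. Over all contigs of those 22 clusters, 11 were at least 2-fold higher in the same library as the member and 7 less than 2-fold. The other 4 were higher in the opposite library, at 1.01-fold to 1.42-fold, and they were CL1466 (HSP70), CL1704 (cyclophilin G), CL357 (omega transferase) and CL3639 (DnaJ subfamily C member 9). Of the 2 contigs of CL1704 in the authors' table only 1 was a member, so its total may cover another protein. For CL357 and CL3639 the interval of the ratio included 1, and with median-ratio scaling the totals of CL1466 and CL3639 turn to the side of their member.

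Neighbouring genes of the same pathways were few in the authors' table. Among its named unigenes 53.1% were higher in the female library. The size rule took 8.9% of named unigenes in the female and 14% in the male direction. Of 6 further redox unigenes 5 were higher in the female library, 1 of them by the size rule. They were peroxidasin (CL2841.Contig1) at 1.74 and 11.3 FPKM, methionine sulfoxide reductase (Unigene16706) at 6.73 and 22.9 FPKM, the iron store ferritin (Unigene15799) at 41.1 and 116 FPKM, glutaredoxin 3 as above, and glutamate-cysteine ligase (CL1756.Contig1), which starts glutathione synthesis, at 0.474 and 1.58 FPKM. A nucleoredoxin-like unigene (Unigene31242) was at 4.30 and 0.598 FPKM. In the folding list 4 of 6 unigenes were higher in the female library, and the size rule took 1 in each direction. Protein disulfide-isomerase 2 (Unigene23229), which forms disulfide bonds in the endoplasmic reticulum, was at 456 and 966 FPKM (2.12-fold, 2.08 to 2.16), and isomerase A5 (Unigene19450) at 14.7 and 32.8 FPKM. Calreticulin (Unigene12072), a chaperone of glycoproteins, was at 2.44 and 6.47 FPKM. Prefoldin subunit 4, which passes actin and tubulin to the chaperonin, had contigs in both directions, CL5446.Contig1 at 1.25 and 9.25 FPKM and CL5446.Contig2 at 4.76 and 0.194 FPKM. The remaining unigene (Unigene18938) carried the KEGG definition hypoxia up-regulated 1 but a Swiss-Prot name of a synaptic vesicle protein, VAT-1, and was at 49.8 and 0.801 FPKM.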

How the data were processed

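Per the labels' protocols, RNA of each worm was extracted with Trizol, selected for poly-A, fragmented, reverse transcribed from random primers, size-selected and amplified. The sources used here do not name an assembler, aligner, counting program or build. Fragment counts and FPKM per unigene were deposited by the authors for each library, per the file headers, with 18.4 M and 19.8 M fragments in all. A further deposited table holds the authors' log2 ratio, with p-value and FDR, and the annotation. A unigene missing from a library's table was taken as 0 fragments. No p-value was computed. Depth limits low values: 3 fragments on 1 kilobase are 0.163 (male) and 0.152 (female) FPKM.

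The members and lists were chosen with earlier results of these data known. Families were set from the Swiss-Prot name, then the KEGG definition. A Trypanosoma hit was read from the organism of the first Nr hit or, without one, from its Swiss-Prot entry name. Named were all members of families of up to 6, and in larger ones the 3 most abundant and the outermost in each direction, plus the 5 outermost of each group in each direction. Further members were named after their values were seen. Ratios and intervals came from SciPy 1.17.1 with pandas 2.3.3, NumPy 2.4.6 and Python 3.11.15, figures from matplotlib 3.10.9, and the code was tested on simulated counts.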

Additional observations from a re-analysis of the deposited data

Results flagged for a closer look

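The 12 unigenes dropped for a Trypanosoma first hit held 0 male and 322 female fragments in all, a signal outside the comparison above, since 0 fragments allow up to 3. They were 4 matches to heat shock protein 83, 4 to heat shock 70 kDa protein 4, 2 to mitochondrial HSP70, 1 to HSP60 and 1 to thioredoxin peroxidase, each at 1.78 to 4.59 FPKM in the female library.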

How the results depend on the processing

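The counts by the size rule were 7 chaperones and 2 antioxidant unigenes in the male direction and 3 and 6 in the female direction. At 2-fold in place of 4-fold they became 17 and 4, and 14 and 16. Female-direction chaperones were 5 with a pseudocount of 0.1 FPKM and 5 with none and 0 set to 3 fragments. With 1 unigene per Swiss-Prot entry the antioxidants gave 0 in the male and 3 in the female direction. Female-direction antioxidants were also 3 without non-nematode hits and 3 without the low-score dismutases. The chaperone median of -0.23 had an interval of -0.844 to -0.206, taken from the ordered members. That interval treats members as independent, although 17 are CDC37 contigs of 1 cluster. The median was -0.84 over the 43 unigenes whose mean reached 1 FPKM, at the edge of that interval. It fell to -1.41 with a pseudocount of 0.1 FPKM and -1.79 with none. It reversed to 0.73 with 1 unigene per entry, to 0.43 with all contigs of a cluster summed and to 0.088 without CDC37. The antioxidant median of 1.24 was 0.91 after scaling by the median ratio of 26774 unigenes with at least 10 fragments in both libraries. That scaling changed the direction of 0 of the 96 members and left 13 of the 48 female-higher members under 2-fold. In all, 55 values, the -0.84 included, kept their direction and stayed within 1.5 times the count or within the median's interval. The causes were not tested. Sums over clusters and the settings without CDC37, cyclophilin G matches by KEGG definition and low-score dismutases were chosen after seeing the data. No paired analysis was possible because each sex has 1 library.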
